A study of Mus musculus with 2 samples.

Results

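Interferon regulatory factors (IRFs) and STAT2 are transcription factors that turn interferon and pathogen signals into gene expression, and IFNAR1 and IFNAR2 are the chains of the type I interferon receptor. The 9 genes described here are Ifnar1, Ifnar2, Stat2, Irf9, Irf3, Irf7, Irf5, Irf1 and Irf8, taken by name from the 32285 features of the count matrices. All 9 were among the features. They were measured in single leukocytes of mouse hearts, in a splenectomy library and a sham surgery library. Splenectomy mice had the spleen removed, and sham mice had surgery without its removal. Both groups were wild-type C57BL/6 males (strain label C57BL/6J) aged 8 weeks. Both had the left anterior descending coronary artery occluded for 60 min and the heart reperfused for 24 h before CD45+ cells were pulled out with magnetic beads. There was 1 library a group, and how many animals were pooled in it is not stated in the sources used here, so the groups could not be tested against each other. Every difference below describes these libraries, and the 95% intervals are exact intervals that cover counting error only.

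Type I interferons bind IFNAR1 and IFNAR2, whose kinases phosphorylate STAT2. It acts with IRF9 in a complex, ISGF3, which binds the interferon-stimulated response element of its target genes, and Irf7, Stat2, Irf9 and Irf1 are themselves known interferon-induced genes. IRF3, IRF7 and IRF5 are activated downstream of sensors of nucleic acids and drive the interferon and inflammatory cytokine genes, while IRF8 is best known as a lineage factor of monocytes, dendritic cells and B cells. In the infarcted heart, released DNA is known to activate IRF3 and interferon-responsive genes in infiltrating myeloid cells.

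The promoters of 4 members are shown because Irf7 and Stat2 gave lower levels after splenectomy in each large class, Irf1 was lower in several, and Irf8 differed widely between cell types. Sequences are the RefSeq promoter windows of GRCm38.p6 up to the RefSeq start, or up to the GENCODE start where that comes first, read 5′ to 3′ on the gene's strand, and capitals mark a match to one of the motifs searched. These were the core of the interferon-stimulated response element, written as GAAA, any 2 bases and GAAA again, and TTCNNNGAA, the interferon-gamma activated site bound by STAT dimers, both on either strand.
Stat2, chr10:128270248-128270497, plus strand: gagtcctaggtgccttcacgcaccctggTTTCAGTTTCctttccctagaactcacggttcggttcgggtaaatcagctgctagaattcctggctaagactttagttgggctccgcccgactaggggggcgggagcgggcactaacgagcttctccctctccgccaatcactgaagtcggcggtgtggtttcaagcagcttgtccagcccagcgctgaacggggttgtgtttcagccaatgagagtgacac
Irf7, chr7:141266482-141266674, minus strand: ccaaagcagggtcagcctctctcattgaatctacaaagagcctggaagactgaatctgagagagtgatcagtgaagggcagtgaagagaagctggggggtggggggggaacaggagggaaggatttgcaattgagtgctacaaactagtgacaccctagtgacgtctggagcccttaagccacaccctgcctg
Irf1, chr11:53769764-53770013, plus strand: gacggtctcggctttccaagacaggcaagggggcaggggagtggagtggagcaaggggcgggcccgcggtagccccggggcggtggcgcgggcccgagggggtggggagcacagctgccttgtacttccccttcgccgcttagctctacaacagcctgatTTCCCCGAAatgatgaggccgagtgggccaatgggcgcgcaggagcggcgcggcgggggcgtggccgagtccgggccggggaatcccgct
Irf8, chr8:120736108-120736357, plus strand: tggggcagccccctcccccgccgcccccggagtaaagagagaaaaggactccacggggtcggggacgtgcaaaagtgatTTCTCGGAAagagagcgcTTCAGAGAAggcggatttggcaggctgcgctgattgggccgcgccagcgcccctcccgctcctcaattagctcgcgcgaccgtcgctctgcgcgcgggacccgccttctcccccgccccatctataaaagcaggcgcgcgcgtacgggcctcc
In windows of 300 bases, 250 before and 50 after the start, the response element was found in 1 of the 9 members, Stat2, where it lay 222 bases before the RefSeq start. That start lies upstream of the GENCODE start of Stat2, and the bases that follow it were not found in a GENCODE transcript of the gene. The same letters were found in 3.99% of all 27025 genes with a window, and in 19 of the 32 interferon target genes with a window. The activated site was found in 4 members, Ifnar1, Ifnar2, Irf1 and Irf8, against 9.55% of all genes, and no match of one motif overlapped one of the other in these members. It lay 90 bases before the start of Irf1, and the first of 2 matches in Irf8 lay 171 bases before its start. The Irf7 window held neither set of letters, which says only that they are not within these bases.

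The 3 large cell classes were neutrophil-, monocyte- and macrophage-like cells, which numbered 1376, 1397 and 941 in the splenectomy library and 2058, 1203 and 1342 in the sham library. Ptprc, the gene of CD45, was detected in 79.4% of kept cells of the splenectomy library and 79.7% of those of the sham library. Median depth was 7219 UMIs (unique molecular identifiers, each counting 1 captured transcript) per kept cell in the splenectomy library and 4988 in the sham library. Within these classes depth was closer, with medians of 3741, 12549 and 13663 UMIs in the splenectomy library and 3332, 12750 and 13123.5 UMIs in the sham library, in the same order of classes. Monocyte-like and macrophage-like cells formed a continuum: 14.0% of them in the splenectomy library and 18.3% in the sham library lay near the dividing score. The libraries shared 9 cell barcodes. Summed neutrophil markers stood at 1996 CPM in monocyte-like cells of the splenectomy library and 1100 CPM in those of the sham library, and at 737 CPM (splenectomy) and 596 CPM (sham) in macrophage-like cells. Monocyte markers summed to 724 CPM in neutrophil-like cells of the splenectomy library and 523 CPM in those of the sham library, and the part of such carried-over RNA in the results below was not tested.

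Irf7, the IRF that amplifies the type I interferon response, was lower in all 3 large classes of the splenectomy library. It reached 162 CPM (UMIs of the gene, per 1000000 UMIs of the class) in neutrophil-like cells of the splenectomy library and 329 CPM in those of the sham library. In monocyte-like cells it reached 128 CPM in the splenectomy library and 332 CPM in the sham library. In macrophage-like cells it reached 113 CPM in the splenectomy library and 216 CPM in the sham library. None of the intervals of the libraries overlapped in these classes. It was 2.03-fold lower in neutrophil-like cells (log2 ratio -1.02, interval -1.13 to -0.91), 2.61-fold lower in monocyte-like cells (-1.38, -1.45 to -1.31) and 1.91-fold lower in macrophage-like cells (-0.93, -1.02 to -0.85). Of all genes with at least 100 counts, 1.11%, 0.279% and 0.410% had a lower ratio than Irf7 in these classes. Irf7 (ENSMUSG00000025498) is protein coding and lies at chr7:141262706-141266481 on the minus strand of mm10.

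Taken as a count, 2 of the 8 members with at least 100 counts were at least 1.5-fold lower in neutrophil-like cells of the splenectomy library, where 7.1% of all such genes were as much lower. In monocyte-like cells 3 of 9 were lower, against 3.4% of genes, and in macrophage-like cells 2 of 9 were lower, against 1.9%. No member was 1.5-fold higher in any of these classes, where 2.88%, 2.07% and 2.17% of genes were. Irf7 and Stat2 made up the count in each class, with Irf1 added in monocyte-like cells. The median log2 ratio of the members was -0.35 in neutrophil-like, -0.46 in monocyte-like and -0.15 in macrophage-like cells, beside -0.08, -0.0019 and -0.01 for all genes. The members did not move as a block: the receptor chains, Irf3 and Irf5 had log2 ratios between -0.26 and 0.20, with some of them outside the quartiles of all genes.

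**Figure D1:**
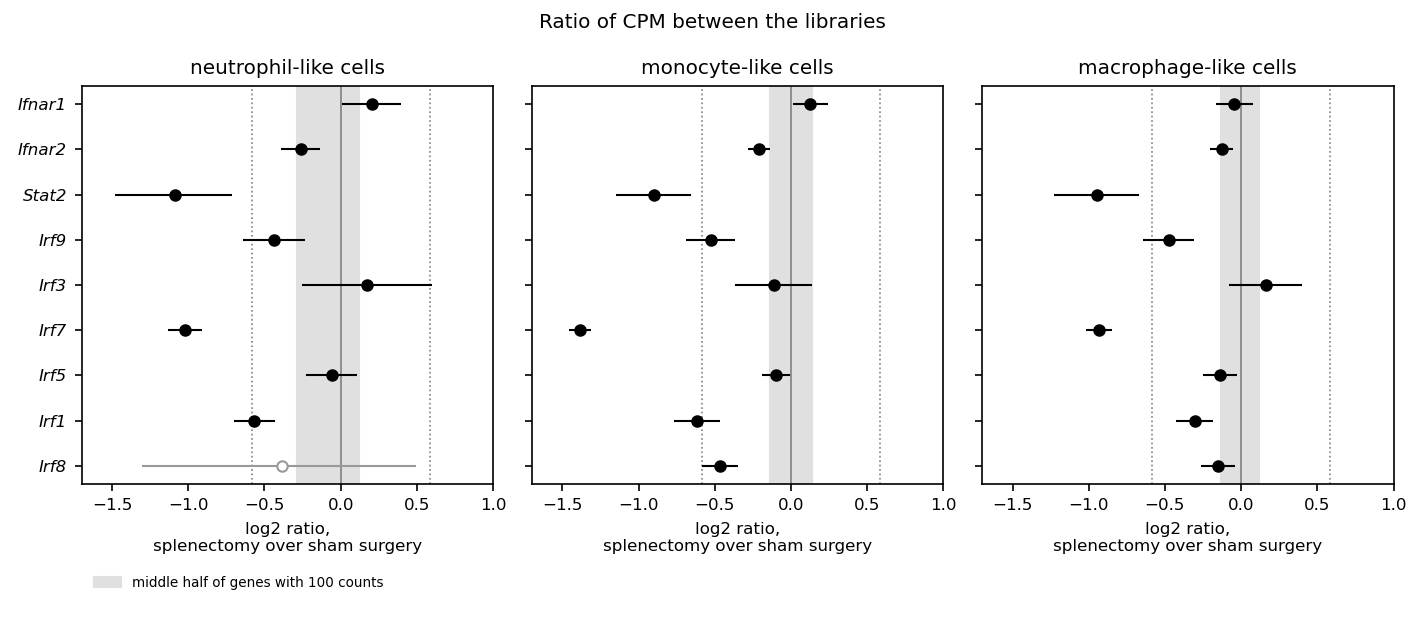
Log2 ratio of CPM, splenectomy over sham surgery, for each member in the 3 large classes, with exact 95% intervals from counting error. Dotted lines mark 1.5-fold, the grey band holds the middle of all genes between the quartiles, and the open marker (Irf8 in neutrophil-like cells) has fewer than 100 counts. Irf7 and Stat2 lie left of the dotted line in all 3 panels, and Irf3, Irf5 and the receptor chains lie between -0.26 and 0.20.

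The receptor chains stayed within 1.5-fold in the large classes. Ifnar1 (ENSMUSG00000022967, chr16:91485238-91507441), which carries the kinase TYK2, stood at 74.4 CPM in neutrophil-like cells of the splenectomy library and 64.6 CPM in those of the sham library. Its levels were 79.2 and 73.1 CPM in monocyte- and macrophage-like cells of the splenectomy library and 72.6 and 75.3 CPM in those of the sham library, and the log2 ratios in the 3 classes were 0.20, 0.13 and -0.04. Between cell types Ifnar1 ran in the splenectomy library between 50.1 CPM in endothelial cell-like and 92.5 CPM in nonclassical monocyte-like cells, and in the sham library between 36.5 CPM in endothelial cell-like and 96.7 CPM in T cell-like cells. In that order of 8 classes each neighbour overlapped the next in both libraries, while the endothelial cell-like interval of the sham library lay below those of T cell-like, B cell-like, nonclassical monocyte-like, macrophage-like and monocyte-like cells.

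Ifnar2 (ENSMUSG00000022971, chr16:91372783-91405589), the chain that binds interferon most tightly and carries JAK1, was slightly lower in the splenectomy library. It stood at 145, 165 and 172 CPM in neutrophil-, monocyte- and macrophage-like cells of the splenectomy library, against 173, 191 and 188 CPM in those of the sham library. The log2 ratios of -0.26, -0.21 and -0.13 had intervals below 0 but none reached 1.5-fold. In a random draw that thinned cells to 2000 UMIs, the monocyte-like value was 0.01. In the separate draw used for shares, 28.2% of monocyte-like cells (splenectomy) and 32.0% (sham) held Ifnar2, with overlapping intervals. The thinned monocyte-like result thus varied with the draw. Between cell types Ifnar2 split myeloid cells from lymphocytes. In the splenectomy library it had 133 CPM in conventional dendritic cell-like, 52.8 CPM in T cell-like and 39.2 CPM in B cell-like cells, and in the sham library it had 161, 54.0 and 70.3 CPM in the same classes. Both receptor genes lie on the plus strand of chromosome 16, and the Ifnar2 gene overlaps a read-through gene model that was not among the features.

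Stat2 (ENSMUSG00000040033, chr10:128270559-128292849), the STAT particular to type I and type III interferon signalling, was lower in the splenectomy library in all 3 large classes. It stood at 14.2 CPM (78 UMIs) in neutrophil-like cells of the splenectomy library and 30.1 CPM (226 UMIs) in those of the sham library. In monocyte- and macrophage-like cells it stood at 12.6 and 11.2 CPM in the splenectomy library, against 23.5 and 21.6 CPM in the sham library. The log2 ratio was -1.09 (interval -1.48 to -0.71) in neutrophil-like, -0.90 (-1.14 to -0.65) in monocyte-like and -0.95 (-1.23 to -0.67) in macrophage-like cells. All 3 intervals lay wholly beyond 1.5-fold, and those of Irf7 and Stat2 overlapped in neutrophil-like and macrophage-like cells but not in monocyte-like cells. Endothelial cell-like cells held the highest Stat2 level of the 8 classes compared in both libraries, with 38.7 CPM (17 UMIs) in the splenectomy library and 73.1 CPM (30 UMIs) in the sham library. Their interval overlapped that of the next class in each library, T cell-like in the splenectomy library and nonclassical monocyte-like in the sham library.

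Irf9 (ENSMUSG00000002325, chr14:55603571-55610030), the DNA-binding subunit of ISGF3, was lower in the splenectomy library by a smaller step. Its levels were 56.1, 32.5 and 33.5 CPM in neutrophil-, monocyte- and macrophage-like cells of the splenectomy library, against 76.0, 46.8 and 46.6 CPM in those of the sham library. The log2 ratios of -0.44, -0.53 and -0.48 were alike in the 3 classes, and each interval lay below 0 without the ratio reaching 1.5-fold. Endothelial cell-like cells were again the highest class, with an Irf9 level of 84.2 CPM in the splenectomy library and 105 CPM in the sham library, and neutrophil-like cells came next with overlapping intervals. Irf9 overlaps Rnf31 on the same strand over 123 bases, so some reads there could belong to either gene.

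Irf3 (ENSMUSG00000003184, chr7:44997648-45002848) is made constitutively and is activated by phosphorylation, so its mRNA is not the measure of its activity. The Irf3 level was 15.8, 15.4 and 19.5 CPM in neutrophil-, monocyte- and macrophage-like cells of the splenectomy library, against 14.0, 16.6 and 17.5 CPM in those of the sham library. Its log2 ratios of 0.17, -0.11 and 0.16 all had intervals that include 0. Irf3 was higher in B cell-like cells than in the myeloid classes, with intervals apart from all 5 of them in the sham library. In the splenectomy library the B cell-like interval overlapped that of nonclassical monocyte-like cells. B cell-like cells held 57.8 CPM (28 UMIs) in the splenectomy library and 42.7 CPM (17 UMIs) in the sham library. These were the highest levels of the classes compared in both. The 5 myeloid classes held between 15.3 and 21.0 CPM in the splenectomy library and between 14.0 and 17.5 CPM in the sham library. T cell-like cells held 52.8 CPM (splenectomy) and 25.6 CPM (sham), and endothelial cell-like cells 47.8 CPM (splenectomy) and 36.5 CPM (sham). Their intervals overlapped that of B cell-like cells in both libraries, so B cell-like cells did not stand apart from these classes. Irf3 overlaps Bcl2l12 on the other strand.

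Irf5 (ENSMUSG00000029771, chr6:29526625-29541871), the IRF tied to inflammatory macrophage programmes, was about level between the libraries. Its level was 90.8, 113 and 82.4 CPM in neutrophil-, monocyte- and macrophage-like cells of the splenectomy library, against 94.6, 121 and 90.6 CPM in those of the sham library, with log2 ratios of -0.06, -0.10 and -0.14. Across the 8 classes compared it was higher in the myeloid classes than in the others in both libraries. Nonclassical monocyte-like cells had 206 CPM in the splenectomy library and 194 CPM in the sham library, and conventional dendritic cell-like cells had 164 CPM in the splenectomy library and 165 CPM in the sham library. B cell-like cells had 39.2 CPM (19 UMIs) in the splenectomy library and 37.6 CPM (15 UMIs) in the sham library. T cell-like cells had 8.33 CPM (3 UMIs) in the splenectomy library and 17.1 CPM (6 UMIs) in the sham library, and endothelial cell-like cells had 2 UMIs in the splenectomy library and 0 in the sham library. Irf5 overlaps Tnpo3 on the other strand.

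Irf1 (ENSMUSG00000018899, chr11:53770014-53778374), induced most strongly by interferon gamma and by inflammatory cytokines, was lower in the splenectomy library in the 3 large classes by unequal steps. It stood at 124 CPM in neutrophil-like cells of the splenectomy library and 183 CPM in those of the sham library. In monocyte- and macrophage-like cells it stood at 34.6 and 65.5 CPM in the splenectomy library, against 53.1 and 80.9 CPM in the sham library. The log2 ratios were -0.57 (interval -0.70 to -0.43), -0.62 (-0.77 to -0.46) and -0.30 (-0.43 to -0.18), so that the monocyte-like value passed 1.5-fold and the neutrophil-like value fell just short of it. When monocyte-like and macrophage-like cells were pooled, the log2 ratio of Irf1 was -0.51, short of 1.5-fold. Endothelial cell-like cells held the highest Irf1 level in both libraries, with 303 CPM in the splenectomy library and 319 CPM in the sham library. There the CPM was level (log2 ratio -0.08, interval -0.43 to 0.28). With cells thinned to the same depth, 26.9% of them held Irf1 in the splenectomy library and 45.6% in the sham library. Those that held it had 2.93 UMIs each (splenectomy) and 2.15 (sham). The intervals of the shares overlapped, so no order is read for this class. In B cell-like cells Irf1 had 20 UMIs (41.3 CPM) in the splenectomy library and 55 UMIs (138 CPM) in the sham library, which is under the minimum of 100 counts. The log2 ratio of these few counts was -1.74 (interval -2.56 to -0.98). With cells thinned, 6.52% of B cell-like cells (splenectomy) and 26.1% (sham) held Irf1, with intervals apart.

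Irf8 (ENSMUSG00000041515, chr8:120736358-120756694) varied widely between cell types. It was highest in natural killer cell-like cells, at 1303 CPM in 28 cells of the splenectomy library and 1160 CPM in 67 cells of the sham library. The few plasmacytoid dendritic cell-like cells came next, at 989 CPM in 6 cells of the splenectomy library and 804 CPM in 2 cells of the sham library. B cell-like and conventional dendritic cell-like cells followed, with 200.2 and 183 CPM in the splenectomy library and 213 and 155 CPM in the sham library. The intervals of B cell-like and conventional dendritic cell-like cells overlapped in both libraries. Neutrophil-like cells lay at the bottom, with 18 UMIs (3.27 CPM) in the splenectomy library and 32 UMIs (4.26 CPM) in the sham library. At 2000 UMIs per cell 0.311% of neutrophil-like cells of the splenectomy library and 0.747% of those of the sham library held a UMI of Irf8, beside 2.94% of T cell-like cells of the splenectomy library and 0 of 57 T cell-like cells of the sham library, which allows a share of up to 5.26%. So few T cell-like cells leave the background uncertain, and the neutrophil-like counts were not read as expression. The median T cell-like cell held 4512 UMIs in the splenectomy library and 4362 UMIs in the sham library.

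Between the libraries Irf8 was lower in monocyte-like cells of the splenectomy library, at 59.4 CPM against 82.0 CPM in the sham library (log2 ratio -0.46, interval -0.58 to -0.35), a step under 1.5-fold. In macrophage-like cells it stood at 83.5 CPM in the splenectomy library and 92.8 CPM in the sham library (-0.15), and in conventional dendritic cell-like cells the ratio lay above 0 (0.24, interval 0.02 to 0.46). The Irf8 gene lies within a longer read-through gene model that was not among the features.

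**Figure D2:**
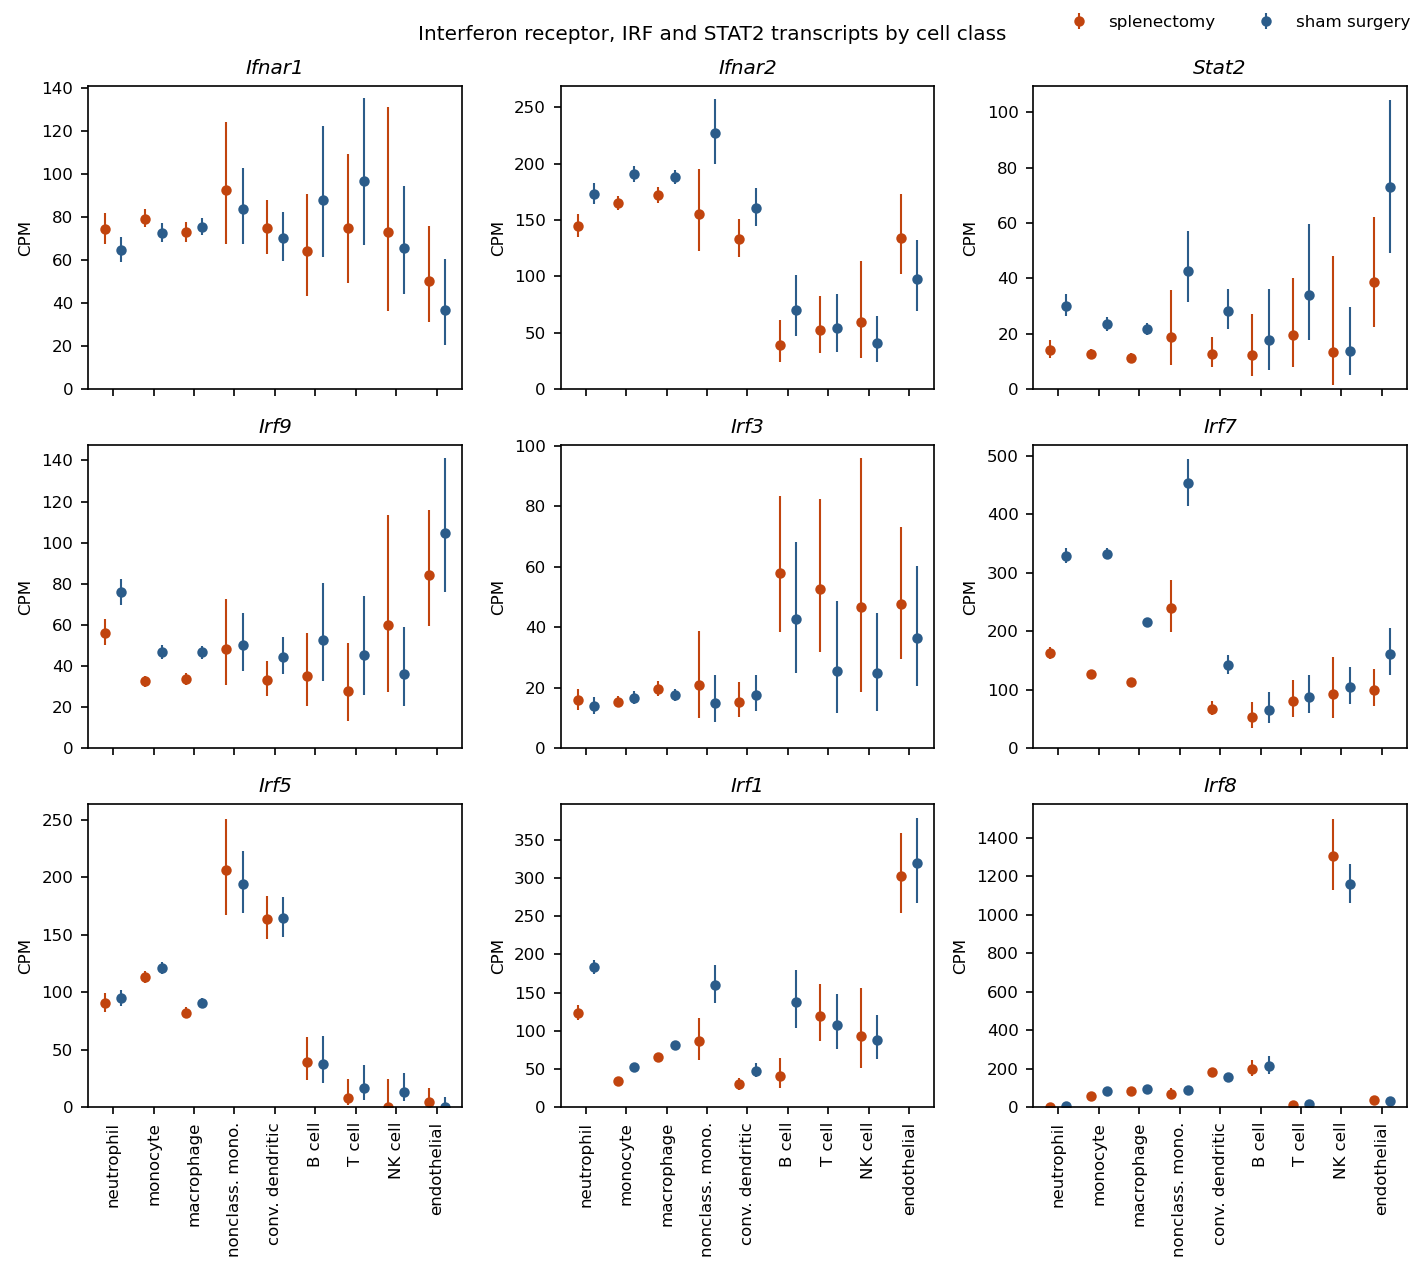
CPM of each member in 9 cell classes, splenectomy in orange-red and sham surgery in blue, with exact 95% intervals from counting error. Irf8 peaks in natural killer cell-like cells, Irf5 in nonclassical monocyte-like and conventional dendritic cell-like cells, Irf1 in endothelial cell-like cells and Irf7 in nonclassical monocyte-like cells. Natural killer cell-like cells number 28 in the splenectomy library and 67 in the sham library and are shown for their level only.

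In the smaller classes the Irf7 level was lower in the splenectomy library wherever it had 100 counts. Nonclassical monocyte-like cells held the highest Irf7 level of the 8 classes compared, at 239.7 CPM in the splenectomy library and 453 CPM in the sham library (log2 ratio -0.92). Conventional dendritic cell-like cells held 67.3 CPM in the splenectomy library and 142 CPM in the sham library (-1.07). Endothelial cell-like cells, which are not leukocytes, held 100.2 CPM in the splenectomy library and 161 CPM in the sham library (-0.68). At 2000 UMIs per cell the share of endothelial cell-like cells with Irf7 ran the other way, at 21.2% in the splenectomy library and 12.3% in the sham library, with overlapping intervals. That thinning left out 23 endothelial cell-like cells of the splenectomy library and 18 of the sham library. Without it the share went with the CPM, at 18.7% (splenectomy) and 33.3% (sham), so no order of shares is read for this class. In lymphocytes Irf7 counts were few. B cell-like cells had 26 UMIs in either library (53.7 CPM in the splenectomy library, 65.2 CPM in the sham library), and T cell-like cells had 29 UMIs (80.6 CPM) in the splenectomy library and 31 UMIs (88.1 CPM) in the sham library, with intervals of the log2 ratio that run between -1.12 and 0.56 and between -0.91 and 0.65. At 2000 UMIs per cell 4.35% of B cell-like cells of the splenectomy library and 14.1% of those of the sham library held Irf7, with overlapping intervals. The difference of these ratios from those of myeloid cells was not tested.

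Irf1 was the other member that passed 1.5-fold in smaller classes. It had 86.2 CPM in nonclassical monocyte-like cells of the splenectomy library and 160 CPM in those of the sham library (log2 ratio -0.89). In conventional dendritic cell-like cells it had 30.0 CPM in the splenectomy library and 48.0 CPM in the sham library (-0.68). With cells thinned to the same depth, the share of cells with Irf1 was not lower in the splenectomy library. It was 21.4% (splenectomy) and 18.2% (sham) in nonclassical monocyte-like cells. In conventional dendritic cell-like cells it was 7.97% (splenectomy) and 7.69% (sham). The intervals overlapped in both classes, so the thinned shares gave no order. Without thinning the share was 50% (splenectomy) and 53.6% (sham) in nonclassical monocyte-like cells. In conventional dendritic cell-like cells the unthinned share was 23.0% (splenectomy) and 35.6% (sham), and so was lower there beside the CPM. Of members with 100 counts, 2 of 6 were lower in nonclassical monocyte-like cells, 2 of 7 in conventional dendritic cell-like cells, 1 of 2 in endothelial cell-like cells and 0 of 1 in B cell-like cells. The shares of all genes as much lower were 6.21%, 2.65%, 5.58% and 2.39%. None was 1.5-fold higher in these classes, where 4.02%, 2.05%, 3.57% and 5.15% of genes were, in the same order. No member reached 100 counts in T cell-like cells, where 6.42% of genes were lower and 3.15% higher. Stat2 had 9 UMIs in nonclassical monocyte-like and 24 UMIs in conventional dendritic cell-like cells of the splenectomy library, against 46 and 61 UMIs in those of the sham library, too few for the count, with intervals of its log2 ratio below 0 in both.

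The share of cells with an Irf7 UMI was lower in the 3 large classes of the splenectomy library. With each cell thinned to 2000 UMIs, 20.7% of neutrophil-like cells of the splenectomy library had at least 1 Irf7 UMI (interval 18.6 to 23.1) and 35.0% of those of the sham library (32.8 to 37.2). In monocyte- and macrophage-like cells the shares were 19.7% and 16.0% in the splenectomy library, against 42.4% and 32.4% in the sham library. Cells that did hold Irf7 had 1.55, 1.58 and 1.41 UMIs each in neutrophil-, monocyte- and macrophage-like cells of the splenectomy library and 1.89, 1.67 and 1.44 in those of the sham library. At such low counts per cell, fewer transcripts in every cell and fewer cells with the transcript cannot be told apart. Without thinning the shares were 31.0%, 47.0% and 44.5% in the splenectomy library and 46.9%, 82.3% and 72.6% in the sham library, in the same order of classes. The thinning left out 89, 95 and 67 cells of the splenectomy library and 184, 86 and 119 cells of the sham library.

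Stat2 was found in 2.49% of neutrophil-like cells of the splenectomy library and 5.71% of those of the sham library, and Irf9 was found in 9.95% (splenectomy) and 13.2% (sham). Irf1 was found in 17.1% of neutrophil-like cells of the splenectomy library and 23.3% of those of the sham library. Irf5 was found in 15.3% of neutrophil-like cells of the splenectomy library and 16.3% of those of the sham library, beside 0 of 68 T cell-like cells of the splenectomy library, which allows up to 4.41%, and 1.75% of those of the sham library. The share of cells without a UMI of any of the 9 genes was 33.5%, 30.4% and 27.5% in neutrophil-, monocyte- and macrophage-like cells of the splenectomy library, against 21.9%, 19.7% and 20.5% in those of the sham library. Free RNA in droplets can add a UMI to any cell, and for members other than Irf5 and Irf8 no class was taken to lack the gene.

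**Figure D3:**
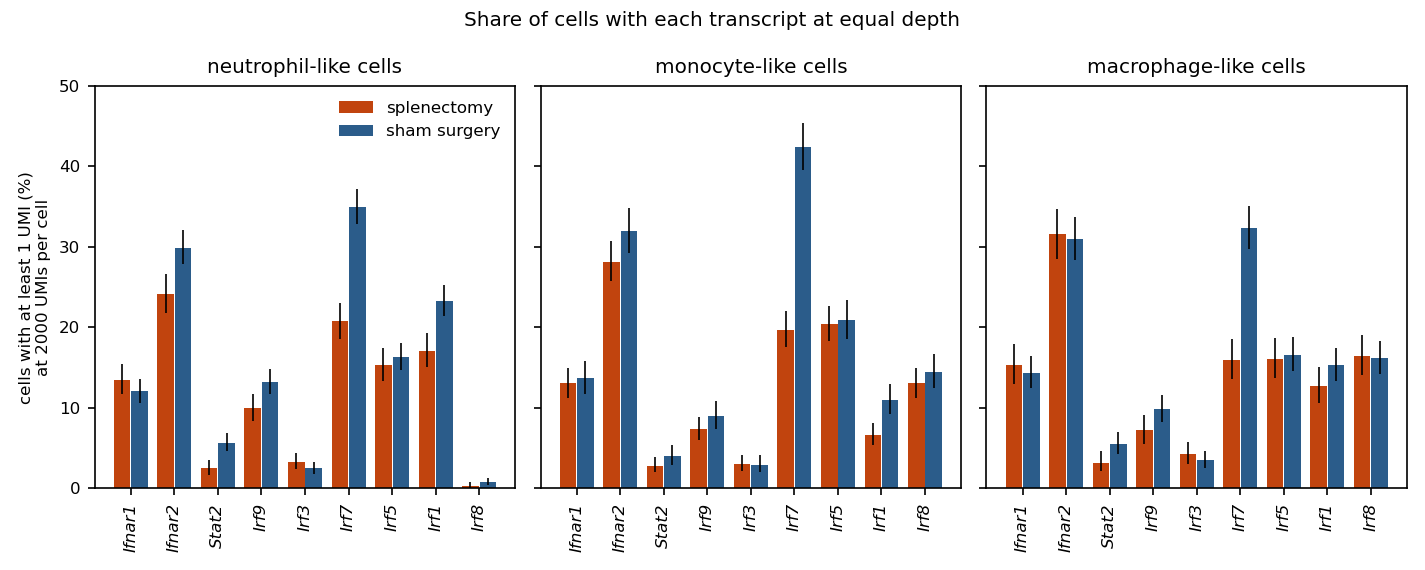
Share of cells with at least 1 UMI of each member after thinning each cell to 2000 UMIs, splenectomy in orange-red and sham surgery in blue, with exact 95% binomial intervals. The Irf7 bars of the splenectomy library stand at 20.7%, 19.7% and 16.0%, against 35.0%, 42.4% and 32.4% in the sham library, while Irf5 and Ifnar1 bars are close to equal.

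The Irf7 ratio was also taken within finer subsets, in 10 clusters of the 3 large classes that were made without the members and the pathway genes. It lay below 0 in 10 of 10, between -1.53 and -0.30 on the log2 scale, and 9 of them passed 1.5-fold. The smallest step was in a neutrophil-like cluster, with 181 CPM in the splenectomy library and 223 CPM in the sham library. Stat2 was at least 1.5-fold lower in 7 of 7 clusters with enough counts, between -1.40 and -0.63. A cluster labelled monocyte-like, of 323 cells in the splenectomy library and 361 in the sham library, stood apart. Its Irf1 level was 127 CPM (splenectomy) and 154 CPM (sham), against at most 39.6 and 74.1 CPM in other monocyte-like clusters. Its Stat2 level was 63.4 CPM (splenectomy) and 117 CPM (sham). This cluster held far fewer UMIs per cell than the others with its label. In the splenectomy library its Ifnar1 level of 118 CPM came from 71 UMIs over 323 cells. In another monocyte-like cluster of that library 78.7 CPM came from 497 UMIs over 456 cells. The label of the shallow cluster and the part of depth in its levels were not tested. Its Irf7 (-1.08) and Stat2 (-0.88) ratios are in these counts. Irf9 lay below 0 in 9 of 9 and Irf1 in 10 of 10, with 4 clusters each past 1.5-fold. Ifnar1 lay below 0 in 2 of 10 and was 1.5-fold higher in 1, a neutrophil-like cluster with 79.1 CPM in the splenectomy library and 52.7 CPM in the sham library. Ifnar2 lay below 0 in 9 of 10, Irf3 in 0 of 5 and Irf5 in 7 of 10, and the most extreme Irf5 value was -0.31.

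Around the members, 123 further genes of interferon signalling were measured, and most of those that differed were targets. Of the genes other than targets, 4 of 44 with enough counts were at least 1.5-fold lower in neutrophil-like, 6 of 55 in monocyte-like and 4 of 56 in macrophage-like cells of the splenectomy library, beside 7.1%, 3.4% and 1.9% of all genes, and 2, 0 and 0 were as much higher. Their medians were -0.07, -0.05 and -0.07. Usp18, which dampens signalling at IFNAR2 and is itself interferon-induced, had log2 ratios of -1.18, -1.25 and -0.97 in neutrophil-, monocyte- and macrophage-like cells. It thus lay beside Irf7 and Stat2 in size.

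Sensors that feed the IRFs were lower in part. Ddx58, which encodes the RNA sensor RIG-I, had log2 ratios of -0.66 in neutrophil-like, -1.01 in monocyte-like and -0.67 in macrophage-like cells. Ifih1, which encodes the RNA sensor MDA5, was 1.5-fold lower in neutrophil-like (-0.85) and monocyte-like cells (-0.69), Dhx58, a regulator of both, in monocyte-like (-1.03) and macrophage-like cells (-0.76), and Zbp1 in monocyte-like cells (-0.91). Tlr4 (0.65) and Ikbke (0.63), the endotoxin receptor and a kinase that phosphorylates IRF3 and IRF7, were 1.5-fold higher in neutrophil-like cells. The kinases Jak1 and Tyk2 and the interferon gamma receptor genes Ifngr1 and Ifngr2 stayed within 1.5-fold in all 3 classes, with log2 ratios between -0.24 and 0.17.

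Interferon transcripts themselves were close to the limit of detection. The 21 ligand genes together gave 0, 33 and 13 UMIs in neutrophil-, monocyte- and macrophage-like cells of the splenectomy library and 2, 25 and 46 UMIs in those of the sham library, and none reached 100 counts. Ifnb1, chosen after its values were seen, made up 31 UMIs of this in monocyte-like and 11 UMIs in macrophage-like cells of the splenectomy library, and 21 and 45 UMIs in those of the sham library. Target genes were the largest group to differ: 28 of 36 were at least 1.5-fold lower in neutrophil-like, 33 of 39 in monocyte-like and 27 of 39 in macrophage-like cells of the splenectomy library, and 0 were as much higher. Of all genes 7.1%, 3.4% and 1.9% were as much lower. The targets' median log2 ratios of -0.80, -0.90 and -0.72 were smaller in size than the ratio of Irf7 in each class. Rsad2 reached 222 CPM in neutrophil-like and 35.4 CPM in monocyte-like cells of the splenectomy library, against 366 and 100.2 CPM in those of the sham library. Gbp2 stood at 6.72 CPM in monocyte-like cells of the splenectomy library and 21.6 CPM in those of the sham library. Among targets that stayed within 1.5-fold, Cxcl10 had 198 CPM in monocyte-like cells of the splenectomy library and 162 CPM in those of the sham library. In macrophage-like cells it was 1.5-fold lower, with 127 CPM in the splenectomy library and 208 CPM in the sham library.

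Within a library, cells with Irf7 also held more target transcripts. At 2000 UMIs per cell, neutrophil-like cells of the splenectomy library with an Irf7 UMI carried a mean of 38.2 ± 35.8 target UMIs (SD over 267 cells), and those without one carried 16.3 ± 10.3 (1020 cells). In the sham library cells with an Irf7 UMI carried 47.6 ± 33.7 (656 cells) and those without one 26.1 ± 14.8 (1218 cells). Cells with and without Irf7 differed by 2.34-, 1.99- and 1.75-fold in neutrophil-, monocyte- and macrophage-like cells of the splenectomy library and by 1.82-, 1.27- and 1.32-fold in those of the sham library. Cells with and without Stat2 differed by 2.56-, 1.65- and 1.19-fold in the same classes of the splenectomy library and by 1.91-, 1.07- and 1.33-fold in those of the sham library. Neutrophil-like cells with and without Ifnar1 were about level, at 1.01-fold in the splenectomy library and 0.93-fold in the sham library. Cells of 1 library are not replicates, and these ratios are a description.

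Cells were also grouped by their target UMIs. Cells with over 20 target UMIs made up 35.8% of neutrophil-like, 41.5% of monocyte-like and 44.3% of macrophage-like cells of the splenectomy library, against 67.3%, 87.5% and 73.8% in the sham library. Among neutrophil-like cells of that group, Irf7 was found in 42.3% in the splenectomy library and 43.7% in the sham library. In monocyte- and macrophage-like cells of the group the shares were 36.3% and 26.9% in the splenectomy library, against 45.6% and 37.8% in the sham library, so a gap in shares was left there. Irf7 UMIs per cell of the group were lower in the splenectomy library in neutrophil-like cells too. These held 335 Irf7 UMIs over 461 cells in the splenectomy library and 1118 over 1262 cells in the sham library. Among cells with 11 to 20 target UMIs the shares with Irf7 were 11.7%, 10.6% and 10.9% in neutrophil-, monocyte- and macrophage-like cells of the splenectomy library, against 18.6%, 17.9% and 18.1% in the sham library. Irf7 goes with the targets that define the groups, so they are not independent of it. The bounds of the groups were set after the data were seen, and the lowest group of the sham library holds only 9, 10 and 12 cells.

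**Figure D4:**
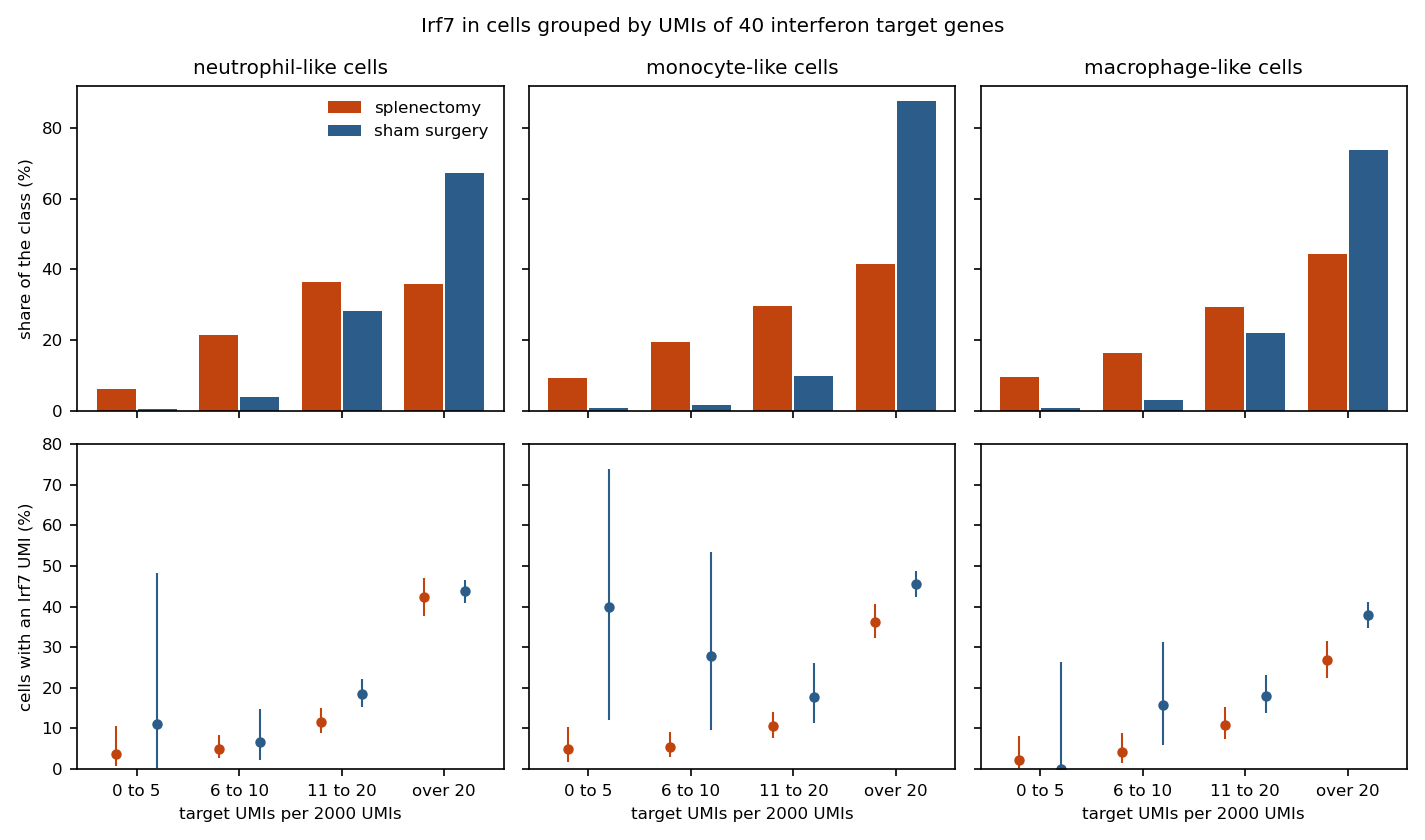
Cells thinned to 2000 UMIs and grouped by their UMIs of 40 interferon target genes, splenectomy in orange-red and sham surgery in blue. The upper row gives the share of each class in a group, and the lower row the share of cells of the group with an Irf7 UMI, with exact 95% binomial intervals. The group with over 20 target UMIs holds 41.5% of monocyte-like cells of the splenectomy library and 87.5% of those of the sham library.

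The genes whose levels followed each member most closely over the 16 profiles of 8 classes and 2 libraries were found by Pearson's r of log2(CPM + 1) among 8707 genes. For Irf7 they were Trafd1 (r = 0.91), Rtp4 (0.87) and Ly6i (0.87), and for Stat2 Herc6 (0.91), Irgm1 (0.83) and Tgtp2 (0.83). Irf5 was followed by Alcam (0.96), Plcg2 (0.96) and Malt1 (0.95), and Irf8 by Gdi2 (0.98), Sergef (0.96) and Lsm3 (0.92). For Ifnar1 they were Dock8, Tnfaip8l2 and Runx1, for Ifnar2 Ugp2, Sowahc and Gng5, for Irf9 Myo1d, Ppp1r2 and Ctdsp2, for Irf3 Jund, Brd9 and Rhno1, and for Irf1 Trim56, Cab39 and Ccnyl1, with r between 0.87 and 0.96. Among the members, Irf9 followed Irf1 (0.80) and Stat2 (0.76), and Irf7 followed Ifnar2 (0.76), whereas Irf3 ran against Ifnar2 (-0.81) and Irf5 (-0.72). The profiles share 2 libraries and differ in depth, and these correlations describe them only.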

How the data were processed

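CD45+ heart cells of 1 splenectomy and 1 sham surgery library were sequenced with Chromium 3' v3 kits, per the labels' protocols. The authors deposited raw UMI counts, by gene and by barcode, for 32285 features, made with Cell Ranger 5.0.0 per the file headers, with STAR and mm10 per the submitters' processing notes. The splenectomy library held 48024013 UMIs over 5087 barcodes and the sham library 53512625 UMIs over 6210 barcodes, and the strand setting of the counting is not stated in the sources used here. The 9 members and all lists were chosen with earlier results of these data known.

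Cells under 200 genes (26 in the splenectomy library, 32 in the sham library) or over 20% mitochondrial UMIs (72 and 58 in the same libraries) were left out. The highest Scrublet scores were removed as doublets at 8 per 1000 cells for each 1000 cells, 200 cells in the splenectomy library and 302 in the sham library, which left 4805 and 5838 cells. Classes were set by marker UMIs per 10000 UMIs, with limits set after the markers' distributions were seen. Neutrophil-like cells needed 100 and 5 markers, nonclassical monocyte-like cells 4 and 4 markers, conventional dendritic cell-like cells 1 and 2 markers, and B, T, natural killer, plasmacytoid dendritic, endothelial, fibroblast and mast cell-like cells 10 and 3 markers. Monocyte-like and macrophage-like cells needed 20 and 4 markers and were split by the higher mean log2 score, and a cell within 0.25 of equality was counted as near the division. Cells high in 2 lineages and cells of no class were left out, 312 and 292 in the splenectomy library and 245 and 420 in the sham library. Of the markers, 10 of 10 neutrophil, 7 of 8 monocyte and 12 of 14 macrophage markers were found in at least 25% of the cells of their class. Only 4 of 8 conventional dendritic cell markers were, in both libraries, so that class is less well supported.

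Counts were summed per class and library and divided by the class total (CPM). Classes with at least 50 cells in both libraries were compared, as splenectomy over sham surgery with an exact interval for a ratio of Poisson counts. A gene counted as lower or higher at 1.5-fold with at least 100 counts in both libraries together. For shares, cells were thinned to 2000 UMIs. Named genes are the 9 members, other pathway genes past that rule in a large class, the 3 genes most like each member among those reaching 20 CPM, while Ifnb1, Jak1, Tyk2, Ifngr1 and Ifngr2 were chosen after their values were seen. Not every gene under this rule is reported here. Of 126 listed pathway symbols 123 were among the features. Clusters used scanpy (2000 variable genes, 30 components, 15 neighbours, Leiden resolution 1). Positions are from GENCODE vM21 and promoters from RefSeq. The code for the intervals was checked on simulated Poisson counts. These hold no variation between cells, animals or libraries, so the check covers counting error only. Scripts ran in python 3.11.15 with scanpy 1.11.5, leidenalg 0.10.2, igraph 0.11.9, scikit-learn 1.9.0, scipy 1.17.1, numpy 2.4.6, pandas 2.3.3 and matplotlib 3.10.9. In all 14 alternatives were set out at the start and 2 were added later.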

Additional observations from a re-analysis of the deposited data

How the results depend on the processing

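Alternatives, 14 set out at the start and 2 added later, varied the classes, filters, scaling, depth, minimum and fold. No alternative gave a member 1.5-fold higher in a large class, and the counts of lower members (2 in neutrophil-like, 3 in monocyte-like and 2 in macrophage-like cells) moved by over 1.5 times in few. In neutrophil-like cells the count was 1 with a minimum of 400 counts, 4 at a lower fold limit and 1 in cells with at most 20 target UMIs. In monocyte-like cells it was 1 with cells thinned, where fewer counts were left, 5 at that lower fold limit and 1 at 2-fold, and in macrophage-like cells it was 0 at 2-fold. Irf7 ran between -1.06 and -0.94 in neutrophil-like, -1.38 and -1.15 in monocyte-like and -1.15 and -0.81 in macrophage-like cells over the alternatives set out at the start. The same ranges for Stat2 were -1.22 to -1.01, -0.91 to -0.61 and -1.07 to -0.77. Of 312 ratios in the large classes 29 moved beyond their counting interval and 19 changed sign, none of a ratio past 1.5-fold. These were of Ifnar1, Ifnar2, Irf3, Irf5 and, in cells with at most 20 target UMIs, Irf9 in monocyte-like cells (0.06). Of 192 in other classes 15 changed sign, and 1 of these was of a ratio past 1.5-fold: Irf1 in nonclassical monocyte-like cells had a log2 ratio of 1.18 in cells with at most 20 target UMIs, and the cause was not tested. That alternative was chosen after seeing the data. No paired analysis was possible because each group holds 1 library. Depth limits Stat2, Irf3 and all members in lymphocytes, where most had under 100 counts.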

Other observations

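Plasmacytoid dendritic cell-like cells, a type known for high Irf7 and Irf8, numbered 6 in the splenectomy library and 2 in the sham library and entered no comparison. Irf8 had 55 UMIs (989 CPM) in those of the splenectomy library and 22 UMIs (804 CPM) in those of the sham library. Irf7 had 20 UMIs (359.7 CPM) in the splenectomy library and 8 UMIs (292 CPM) in the sham library, and Stat2 had 0 UMIs in both. In natural killer cell-like cells Irf7 stood at 93.1 CPM (14 UMIs) in the splenectomy library and 104 CPM (46 UMIs) in the sham library, and Irf1 at 93.1 CPM (splenectomy) and 88.3 CPM (sham). Tlr4 and Ikbke were the pathway genes higher in neutrophil-like cells, where Tlr4 stood at 137 CPM in the splenectomy library and 87.4 CPM in the sham library.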
